A study of Mus musculus with 9 samples.

Results

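The endoplasmic reticulum (ER) stress sensors and chaperones examined here are 10 genes of the unfolded protein response, Xbp1, Atf6, Ddit3, Hspa5, Hsp90b1, Dnajb9, Sdf2l1, Pdia4, Creld2 and Herpud1, taken by name from a table of 21899 genes. The 9 RNA-seq libraries came from Neuro-2a (N2a), a line of mouse neuroblastoma cells, and numbered 3 each with shlucif, a control hairpin against luciferase, and with shArf1-1 or shArf1-2, hairpins against Arf1. Arf1 is a small GTPase that recruits coat proteins to the Golgi. The labels give the genotypes as luciferase knockdown and Arf1 knockdown and list no treatment, and the study's methods list each of the 3 hairpins in a pLKO.1 lentiviral vector with a puromycin marker, so that the control cells carried a vector and a hairpin too. Whether the cells were selected or are clones is not given in the sources used here. In the deposited table the columns of the hairpins are named shArf1 and shArf2, and these were read as shArf1-1 and shArf1-2 from the digits of the names, so every value given for a single hairpin rests on that reading. Libraries held between 11182479 and 15594615 counts. Nothing in the labels says that the 3 libraries of a group came from separate cultures, so p-values measure only the spread between these libraries, which may be technical. The question was how the RNA of the ER stress response differed between control and Arf1-deficient cells.

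The unfolded protein response is how a cell answers misfolded protein in the ER. Its sensors are the kinase and RNase Ire1 (Ern1), which splices Xbp1 mRNA, the kinase PERK (Eif2ak3), which leads to translation of Atf4, and the membrane-bound factor Atf6, which is cut in the Golgi. BiP (Hspa5), an ER chaperone, holds the sensors inactive, and spliced Xbp1, cleaved Atf6 and Atf4 switch on genes for chaperones, disulfide exchange, degradation of misfolded protein and, under lasting stress, Ddit3 (CHOP). Read counts per gene do not tell spliced from unspliced Xbp1 mRNA, and splicing, cleavage and phosphorylation were not measured in these libraries.

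The hairpin targets are shown because they define the groups. They lie in the coding sequence of Arf1 (ENSMUSG00000048076, minus strand of chromosome 11, GRCm38).
shArf1-1 target, exon 3, chr11:59213222-59213242: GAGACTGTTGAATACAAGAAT
shArf1-2 target, exon 2, chr11:59213386-59213406: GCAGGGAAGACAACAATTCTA
In the GENCODE transcripts both targets also matched AC127331.2 perfectly and the shArf1-2 target matched Gm19587, so reads of Arf1 may be shared with these genes. Arf1 was at 328, 316 and 328 FPKM (counts scaled by the length of the gene and the total of the library) in the shlucif libraries, at 130, 128 and 127 FPKM with shArf1-1 and at 166, 157 and 171 FPKM with shArf1-2. The groups did not overlap. Arf1 fell by 1.39 on the log2 scale with shArf1-1 and by 1.05 with shArf1-2, and the level was 1.27-fold higher with shArf1-2 than with shArf1-1 (edgeR adjusted p = 1.16e-05).

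Promoter windows from RefSeq (GRCm38.p6, 250 bases before to 50 after the annotated start) were found for 9 of the 10 genes, the exception being Atf6. Each was searched on both strands for the ER stress response element ERSE, which is CCAAT, any 9 bases and CCACG. Atf6 binds ERSE together with the CCAAT-binding factor NF-Y. Also searched were ERSE-II (ATTGG, any 1 base, CCACG) and the unfolded protein response element UPRE (TGACGTGG). The last was the amino acid response element AARE (TGATGNAAT, bound by Atf4). The CCAAT of ERSE and the ATTGG of ERSE-II are the same box on opposite strands. The matches are shown in the direction of the motif, with its fixed letters in capitals, since they are the sequence feature that sets some of these genes apart from most promoters.
Hspa5 ERSE, chr2:34772020-34772048, plus strand: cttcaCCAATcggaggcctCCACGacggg
Hsp90b1 distal ERSE, chr10:86705633-86705661, minus strand: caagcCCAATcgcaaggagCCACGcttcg
Hsp90b1 proximal ERSE, chr10:86705528-86705556, plus strand: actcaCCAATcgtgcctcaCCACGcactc
Creld2 ERSE, chr15:88819515-88819543, minus strand: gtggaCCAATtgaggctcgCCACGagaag
Herpud1 ERSE-II, chr8:94386368-94386396, plus strand: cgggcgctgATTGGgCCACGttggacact
The Hspa5 element lay 65 to 47 bases before the start. Hsp90b1 had 1 element on its own strand 212 to 194 bases before the start and 1 on the opposite strand 107 to 89 bases before it. The Creld2 element lay on the opposite strand, 126 to 108 bases before the start, and the Herpud1 element 52 to 42 bases before it. ERSE was therefore present in 3 of 9 windows, against 0.119% of all 32851 promoter windows of the same length, and ERSE-II in 1 of 9, against 0.0365%. UPRE and AARE were in 0 of the 9 windows and in 0.676% and 0.965% of all windows. A box of CCAAT alone on either strand was in 8 of the 9 windows, all but that of Xbp1, and in 37.4% of all windows. Hsp90b1 had 6 such boxes, Hspa5 and Sdf2l1 4 each, and 5 of the 9 windows had at least 3, against 3.37% of all windows. ERSE and ERSE-II are elements known from genes of this response, so their shares in these windows are not an independent result. A match is a description of these letters and was not tested for binding.

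**Figure D1:**
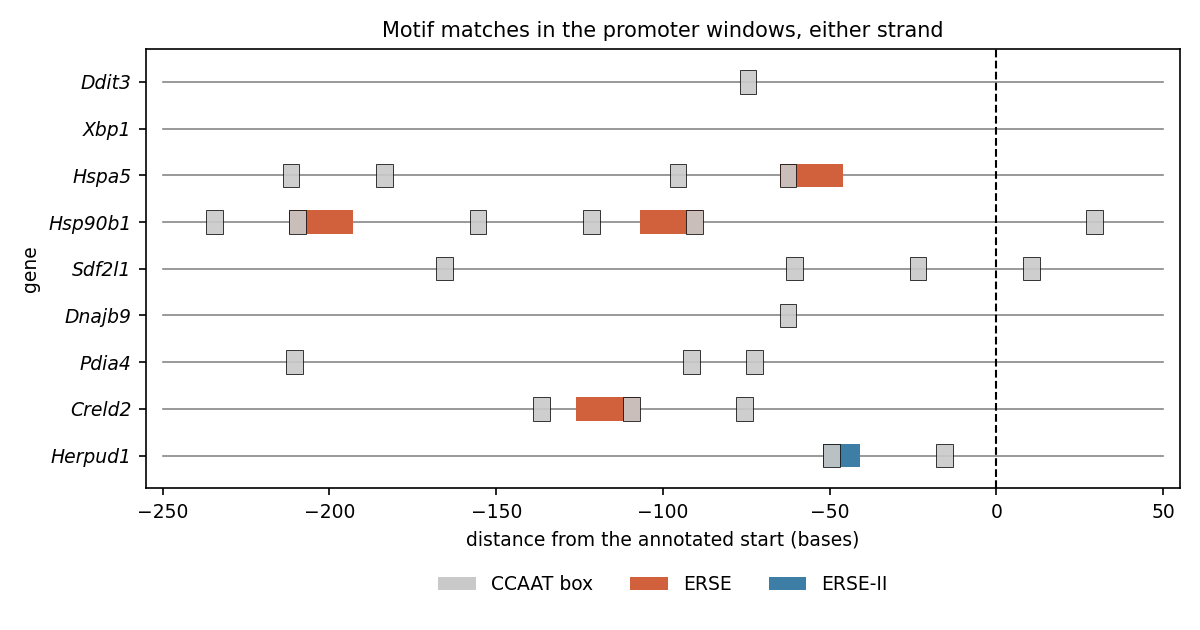
Motif matches in the promoter windows of 9 genes, by distance in bases from the annotated start (dashed line, direction of transcription to the right); grey boxes are CCAAT on either strand, orange ERSE and blue ERSE-II. ERSE stands in Hspa5, Hsp90b1 (2 matches) and Creld2, ERSE-II in Herpud1, and Xbp1 has no box.

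Markers of the labelled cell type were present in every group. Of 18 markers of neuroblastoma and sympathetic neurons, Tubb3, Prph, Uchl1, Phox2a, Hand2 and Chga were abundant in every group, while Nefm was at 0 counts in all 9 libraries and Nefl was at 3 counts or fewer per group. A second set of RNA moved with the hairpins. All 21 microglia and macrophage markers were counted in shlucif libraries, where their summed level was 1356, 1257 and 1172 FPKM, and the sum was between 1.06 and 1.46 FPKM in the 6 Arf1-deficient libraries. The most abundant was Spp1, at a mean of 935 FPKM with shlucif, 0.388 with shArf1-1 and 0.200 with shArf1-2. Of the 17 markers tested, 17 were lower in Arf1-deficient cells, and Aif1, Cx3cr1, P2ry12, C1qa, C1qb, C1qc, Itgam, Ctss and Spi1 were at 0 counts in all 6 of those libraries. In the shlucif libraries together, Cx3cr1 had 4 counts and P2ry12 and C1qa 1 count each. Of the fibroblast markers 2 of 4 tested, and of the endothelial markers 2 of 3 tested, were also lower, with sums of at most 7.24 and 4.79 FPKM in any library. Every comparison with shlucif given here moved together with this RNA, and its part in the results was not tested. The shlucif libraries may thus hold RNA of cells other than N2a, and every shlucif level given here is that of the whole library. In the comparison of the hairpins with each other, the macrophage marker sum was near 1 FPKM on both sides. In bulk RNA, fewer cells of a type and less RNA per cell cannot be told apart.

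Levels were compared between genes per length, in FPKM. With shlucif the order was Hspa5 at 198 ± 5.07 FPKM (SD, n = 3), Hsp90b1 at 112 ± 3.27, Sdf2l1 at 70.5 ± 3.64, Pdia4 at 56.1 ± 0.994, Ddit3 at 45.9 ± 3.24, Creld2 at 37.3 ± 1.84, Herpud1 at 35.5 ± 2.53, Xbp1 at 33.5 ± 3.68, Atf6 at 17.8 ± 0.520 and Dnajb9 at 7.01 ± 1.59. The ranges of Creld2 and Herpud1, and those of Herpud1 and Xbp1, overlapped, and the other neighbours were apart in all 3 libraries. Hspa5 was the 183rd most abundant of all genes in the mean of the shlucif libraries and the 126th with shArf1-2. Hspa5, Hsp90b1 and Sdf2l1 held the first 3 places and Atf6 and Dnajb9 the last places in every group, while the middle of the order moved. Ddit3 went from place 5 with shlucif to place 8 with either Arf1 hairpin, and Creld2 from place 6 with shlucif to place 7 with shArf1-1 and place 4 with shArf1-2. With shArf1-2, the ranges of Creld2, Herpud1 and Pdia4 overlapped from each neighbour to the next. The summed level of the 10 genes was 614 ± 10.3 FPKM (SD, n = 3) with shlucif, 655 ± 15.1 with shArf1-1 and 714 ± 8.21 with shArf1-2, and Hspa5 was the largest part of it.

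**Figure D2:**
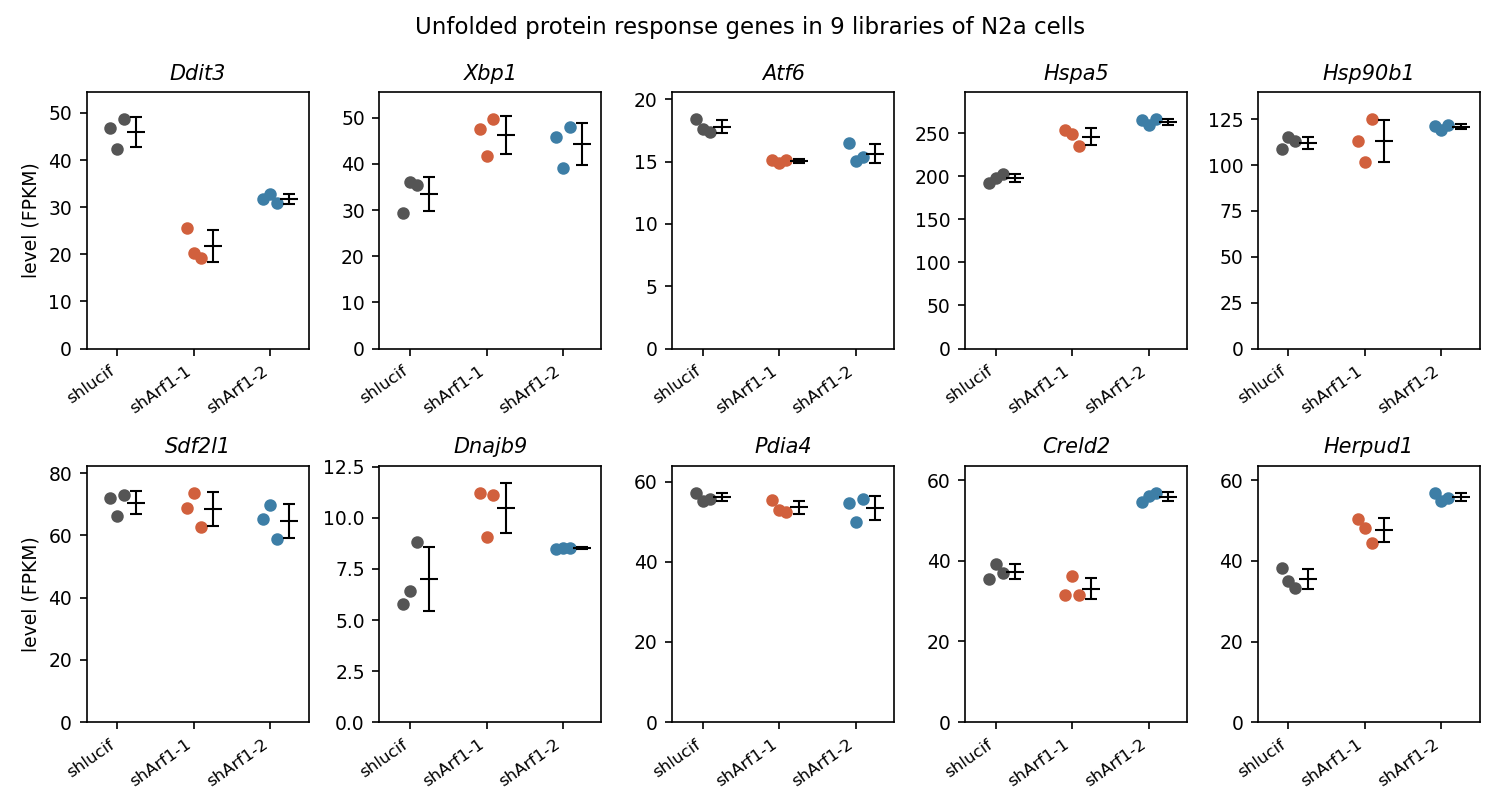
Level (FPKM, linear axis from 0) of the 10 genes in each library, with the mean and SD (n = 3) of each group beside the points, for shlucif (grey), shArf1-1 (orange) and shArf1-2 (blue). Ddit3 is lowest with shArf1-1, Hspa5, Xbp1 and Herpud1 are higher in all 6 Arf1-deficient libraries, and Creld2 is high with shArf1-2 alone.

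All 10 genes had enough counts to be tested, from 204 counts in a library for Dnajb9 to 16422 for Hspa5. Between the 6 Arf1-deficient and the 3 shlucif libraries, 4 genes were higher (Hspa5, Xbp1, Dnajb9 and Herpud1), 3 were lower (Ddit3, Atf6 and Pdia4) and Hsp90b1, Sdf2l1 and Creld2 did not pass the threshold, an adjusted p of 0.05 by the quasi-likelihood test of edgeR. Over all 12448 genes tested, 64.5% passed, 31.6% higher and 32.9% lower, so that 7 of 10 is close to the share of any genes in these libraries. The median size of the changes of the 10 genes, in either direction, was 0.288 on the log2 scale, against 0.366 for all genes tested. Their signed median was 0.0961, against 0.00335. After scaling by TMM (trimmed mean of M values), the Arf1-deficient and shlucif libraries did not overlap in 6 of the 10 genes, against 58.1% of all genes tested.

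Each hairpin was also compared with shlucif on its own. With shArf1-1, 4 genes were higher and 3 lower, beside 67.5% of all genes past the threshold, 33.1% higher and 34.4% lower. With shArf1-2, 4 were higher and 4 lower, beside 63.4% of all genes, 30.9% higher and 32.6% lower. The 2 comparisons share the shlucif libraries.

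**Figure D3:**
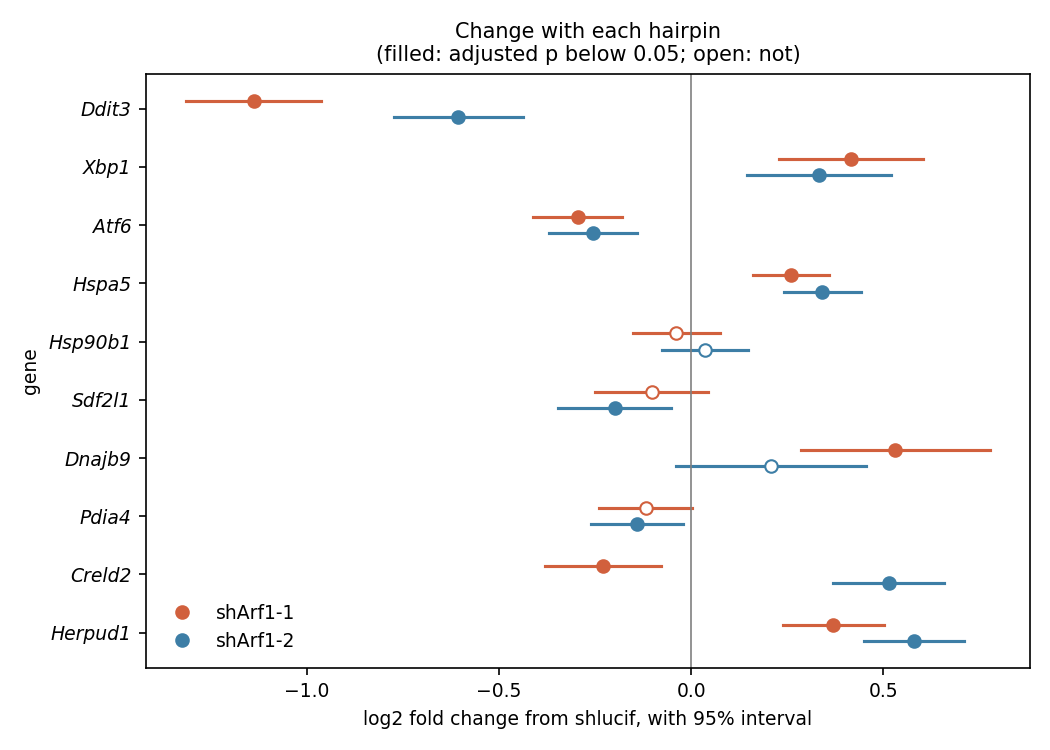
Log2 fold change from shlucif of each gene with shArf1-1 (orange) and shArf1-2 (blue), with 95% intervals from the edgeR fit; filled points have an adjusted p below 0.05. Ddit3 lies farthest to the left with both hairpins, and the Creld2 points lie on opposite sides of 0.

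Among the sensors and transcription factors, Ddit3 fell, Atf6 fell and Xbp1 rose. Ddit3 encodes CHOP, a transcription factor that promotes cell death under lasting ER stress. Ddit3 was at 46.8, 42.3 and 48.6 FPKM with shlucif, at 25.6, 20.3 and 19.3 FPKM with shArf1-1 and at 31.7, 32.7 and 30.8 FPKM with shArf1-2. Every Arf1-deficient library was below every shlucif library, and the shArf1-1 libraries were below those of shArf1-2. Pooled over the hairpins, the log2 fold change was -0.84 (standard error 0.16, edgeR adjusted p = 0.00105). With shArf1-1 the level was 2.20-fold lower (95% interval of the log2 fold change -1.31 to -0.96), and with shArf1-2 it was 1.52-fold lower (-0.77 to -0.44). The hairpins differed by 0.53 on the log2 scale (standard error 0.09, edgeR adjusted p = 7.08e-05). Relative to Hspa5 in the same library, the Ddit3 level was 23.2% ± 1.61 (SD, n = 3) with shlucif, 8.81% ± 1.10 with shArf1-1 and 12.1% ± 0.526 with shArf1-2. Of the 1713 annotated exonic bases of Ddit3 (ENSMUSG00000025408), 68 overlap Mars on the opposite strand, and whether counting used strand is not given in the sources used here. A second row named Ddit3, for a short reading frame of 105 bases inside the same gene, was at 0 counts in all 9 libraries.

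Xbp1 encodes the transcription factor made from the mRNA that Ire1 splices. Xbp1 was at 29.3, 36.0 and 35.3 FPKM with shlucif, at 47.6, 41.7 and 49.6 FPKM with shArf1-1 and at 45.7, 39.2 and 47.9 FPKM with shArf1-2. The Arf1-deficient libraries all lay above the shlucif libraries, and the hairpins overlapped. The level was 1.30-fold higher in Arf1-deficient cells (log2 fold change 0.37, standard error 0.08, edgeR adjusted p = 0.000545). Between the hairpins the difference was -0.08 on the log2 scale, with a 95% interval of -0.27 to 0.10.

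Atf6 encodes the sensor that is cut in the Golgi. Atf6 was at 18.4, 17.6 and 17.4 FPKM with shlucif, at 15.1, 14.9 and 15.1 FPKM with shArf1-1 and at 16.5, 15.0 and 15.4 FPKM with shArf1-2. Every Arf1-deficient library was below every shlucif library by a small margin, and the hairpins overlapped. The level was 1.21-fold lower in Arf1-deficient cells (log2 fold change -0.28, standard error 0.05, edgeR adjusted p = 0.000133), and the 95% interval of the difference between the hairpins was -0.08 to 0.15.

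Among the chaperones and cochaperones, Hspa5 and Dnajb9 rose and Hsp90b1 and Sdf2l1 did not pass the test. Hspa5 encodes BiP, the Hsp70 of the ER. Hspa5 was at 193, 198 and 203 FPKM with shlucif, at 254, 249 and 235 FPKM with shArf1-1 and at 265, 259 and 266 FPKM with shArf1-2. All 6 Arf1-deficient libraries were above the shlucif libraries. The level was 1.23-fold higher (log2 fold change 0.30, standard error 0.05, edgeR adjusted p = 1.88e-05), with 0.26 for shArf1-1 and 0.34 for shArf1-2. The difference of 0.08 between the hairpins had a 95% interval of -0.02 to 0.18.

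Hsp90b1 encodes Grp94, the Hsp90 of the ER. Hsp90b1 was at 109, 115 and 113 FPKM with shlucif, at 113, 102 and 125 FPKM with shArf1-1 and at 121, 119 and 122 FPKM with shArf1-2. The shArf1-1 libraries spanned the range of the other groups. Pooled over the hairpins, the log2 fold change was -0.0011, with a 95% interval of -0.12 to 0.12 (edgeR adjusted p = 0.987). So Hspa5 and Hsp90b1, which both have ERSE in their promoter windows, differed in this measurement, and the ratio of Hsp90b1 to Hspa5 was 56.8% ± 1.26 (SD, n = 3) with shlucif, 46.2% ± 6.29 with shArf1-1 and 45.9% ± 0.0812 with shArf1-2. Of its 4032 annotated exonic bases, 415 overlap a gene on the opposite strand, 1810014B01Rik, which is not a row of the table. On the same strand, 133 bases overlap Gm25745 and 84 overlap Gm15344, which are not rows of the table either.

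Sdf2l1 encodes a cochaperone that binds BiP together with ER J-domain proteins. Sdf2l1 was at 72.1, 66.4 and 73.1 FPKM with shlucif, at 68.7, 73.6 and 62.7 FPKM with shArf1-1 and at 65.2, 69.8 and 58.9 FPKM with shArf1-2. The 3 groups overlapped. The log2 fold change was -0.15 (95% interval -0.30 to 0.00072, edgeR adjusted p = 0.0754) in Arf1-deficient cells, and with shArf1-2 it was -0.20 (edgeR adjusted p = 0.0165). The pooled call appeared without shArf1-1 replicate 2 (-0.19) or shlucif replicate 2 (-0.20). The shArf1-2 call was lost on scaling by library size (-0.13, edgeR adjusted p = 0.127), in both limma fits (-0.13, adjusted p = 0.132) and without shArf1-2 replicate 3 (-0.14), shlucif replicate 1 (-0.18) or shlucif replicate 3 (-0.17).

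Dnajb9 encodes ERdj4, a J-domain cochaperone of BiP that returns Ire1 to its inactive state. Dnajb9 was at 5.80, 6.42 and 8.81 FPKM with shlucif, at 11.2, 9.09 and 11.1 FPKM with shArf1-1 and at 8.46, 8.54 and 8.53 FPKM with shArf1-2. In FPKM the shArf1-1 libraries were above all others, and the shArf1-2 libraries fell inside the range of shlucif, of which replicate 3 was the highest. After TMM scaling, shArf1-1 replicate 2 was just below shlucif replicate 3, while the other shArf1-1 libraries stayed above all shlucif libraries. The level was 1.30-fold higher in Arf1-deficient cells (log2 fold change 0.38, standard error 0.14, edgeR adjusted p = 0.0234), with 0.53 for shArf1-1 and 0.21 for shArf1-2, the latter not past the threshold (adjusted p = 0.135). Without shlucif replicate 1 the pooled change was 0.26 (adjusted p = 0.151), without shlucif replicate 2 it was 0.31 (adjusted p = 0.115), and without shlucif replicate 3 it was 0.58, and shArf1-2 then passed with 0.41. The hairpins differed by -0.32, with an adjusted p of 0.0607, which passed without a filter on low counts (adjusted p = 0.0210), without shArf1-1 replicate 2 (-0.41) and without shlucif replicate 1 or 3 (-0.32 in both). Dnajb9 had 204 to 443 counts in a library, the fewest of the 10 genes.

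Of the genes of disulfide exchange, Pdia4 was slightly lower, and Creld2 moved in opposite directions with the hairpins. Pdia4 encodes a protein disulfide isomerase of the ER, also called ERp72. Pdia4 was at 57.2, 55.3 and 55.7 FPKM with shlucif, at 55.5, 52.8 and 52.5 FPKM with shArf1-1 and at 54.7, 49.9 and 55.6 FPKM with shArf1-2. The FPKM ranges overlapped, while after TMM scaling every Arf1-deficient library was below every shlucif library. The hairpins overlapped on both scales. The log2 fold change was -0.13 (standard error 0.06, edgeR adjusted p = 0.0458). This call was lost under 10 of 17 alternatives, among them scaling by library size (-0.07, adjusted p = 0.263), no filter on low counts (adjusted p = 0.0760), and the fits without shArf1-1 replicate 3 (-0.12), shArf1-2 replicate 1 (-0.14), shArf1-2 replicate 2 (-0.11), shlucif replicate 1 (-0.11), shlucif replicate 2 (-0.15) or shlucif replicate 3 (-0.13). With shArf1-2 alone it was -0.14 (edgeR adjusted p = 0.0361). That call was lost with library size scaling (-0.07, adjusted p = 0.276), in both limma fits (-0.07, adjusted p = 0.223), with no filter on low counts (adjusted p = 0.0502) and without shArf1-2 replicate 2 (-0.09), shlucif replicate 1 (-0.12) or shlucif replicate 3 (-0.14).

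Creld2 encodes an ER protein with disulfide isomerase activity. Creld2 was at 35.6, 39.2 and 37.0 FPKM with shlucif, at 31.5, 36.1 and 31.5 FPKM with shArf1-1 and at 54.7, 56.2 and 56.8 FPKM with shArf1-2. Every shArf1-2 library was above every other library, and shArf1-1 replicate 2 fell inside the range of shlucif in FPKM. With shArf1-1 the level was 1.17-fold lower (log2 fold change -0.23, standard error 0.07, edgeR adjusted p = 0.00727), and with shArf1-2 it was 1.43-fold higher (0.51, standard error 0.07, adjusted p = 1.20e-07). The hairpins differed by 0.74 on the log2 scale (95% interval 0.60 to 0.89, edgeR adjusted p = 6.26e-09), a 1.67-fold difference. The pooled comparison, which averages over the hairpins, gave 0.19 (95% interval -0.35 to 0.73). Among all genes tested, 27, or 0.217%, passed the threshold with each hairpin in opposite directions, and Creld2 was the 1 gene of the 10 that did.

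Herpud1, which encodes a membrane protein of the degradation complex that takes misfolded proteins out of the ER, rose most among the genes higher in the pooled comparison. This rank rested on shlucif replicate 3. Without that library Dnajb9 rose by 0.58, above the highest Herpud1 change with any library left out (0.54). Herpud1 was at 38.2, 35.1 and 33.2 FPKM with shlucif, at 50.4, 48.2 and 44.5 FPKM with shArf1-1 and at 56.8, 54.8 and 55.7 FPKM with shArf1-2. The 3 groups did not overlap, with shArf1-2 the highest. The level was 1.39-fold higher in Arf1-deficient cells (log2 fold change 0.48, standard error 0.08, edgeR adjusted p = 1.91e-05), with 0.37 for shArf1-1 and 0.58 for shArf1-2. The difference of 0.21 between the hairpins passed the threshold (edgeR adjusted p = 0.0222), but not without shArf1-1 replicate 3 (0.16), shArf1-2 replicate 1 (0.19) or shArf1-2 replicate 3 (0.21, adjusted p = 0.0721).

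Between the hairpins, 3 of the 10 genes differed, Ddit3, Creld2 and Herpud1, each higher with shArf1-2. Over all genes tested, 14.4% differed, 6.98% higher and 7.46% lower with shArf1-2, and the 1798 genes behind this share became 1159 without shArf1-1 replicate 1 and 1194 without shArf1-2 replicate 1. Of the other 7 genes Dnajb9 had the largest difference. The residual level of Arf1 was also higher with shArf1-2, and its part in these differences was not tested.

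The rest of the signalling pathway was read from a list of 28 symbols, of which 26 genes were tested. In Arf1-deficient cells 5 were higher, 11 lower and 10 did not pass the test, with a median log2 fold change of -0.11. The share past the threshold was 61.5%, near the 64.5% of all genes tested. Of the sensors, Ern1 (Ire1) had a mean of 9.10 ± 0.704 FPKM (SD, n = 3) in shlucif and of 5.99 ± 0.0564 and 7.07 ± 0.536 FPKM with shArf1-1 and shArf1-2, and fell by 0.54 on the log2 scale (edgeR adjusted p = 6.95e-06). Eif2ak3 (PERK) was at 7.39 ± 0.730 FPKM with shlucif, at 7.23 ± 0.164 with shArf1-1 and at 5.84 ± 0.160 with shArf1-2, with a log2 fold change of -0.08 (adjusted p = 0.352) and -0.41 (adjusted p = 3.56e-05) for the hairpins in the edgeR fit. Pooled it was -0.24 (adjusted p = 0.0358), a call lost under 9 of 17 alternatives, among them limma on log2(FPKM + 1) (-0.16), the replicate block (adjusted p = 0.0607) and the fits that leave out shArf1-2 replicate 1 (-0.21), replicate 2 (-0.21) or replicate 3 (-0.20), without shlucif replicate 2 (-0.17) or without shlucif replicate 3 (-0.26). Atf6b, the paralog of Atf6, had a log2 fold change of 0.03 (edgeR adjusted p = 0.720). Atf4, the factor whose translation PERK raises, rose by 0.59, from 240 ± 9.11 FPKM with shlucif to 368 ± 6.19 and 388 ± 6.48 FPKM. Nfyc, a subunit of the NF-Y factor that binds CCAAT boxes, rose by 1.68, while the subunit Nfya fell by 0.19 (edgeR adjusted p = 0.0130) and Nfyb did not pass the test (0.0093, adjusted p = 0.921). Zbtb8os, a cofactor of the ligase that joins the cut Xbp1 mRNA, rose by 0.88. Map3k5, a kinase downstream of Ire1, fell by 1.05, Creb3l2, a relative of Atf6 that is also cut in the Golgi, fell by 0.80, and Nfe2l2, a stress factor that PERK phosphorylates, fell by 0.79. Thus the RNA of Ern1, Atf6 and Ddit3 was lower while that of Xbp1 and Atf4 was higher.

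Of 39 other folding factors of the ER that were tested, 23 were higher, 10 lower and 6 did not pass the test in the pooled comparison, beside 31.6% higher and 32.9% lower of all genes. Their median was 0.21, beside 0.00335 for all genes. With shArf1-1, 24 were higher and 8 lower, and with shArf1-2, 18 were higher, 12 lower and 9 did not pass the test. Of all genes tested, 33.1% were higher and 34.4% lower with shArf1-1, and 30.9% higher and 32.6% lower with shArf1-2. Hyou1, an ER Hsp70 relative that exchanges nucleotide on BiP, was at 67.5 ± 0.706 FPKM (SD, n = 3) with shlucif, 102 ± 2.73 with shArf1-1 and 93.0 ± 2.94 with shArf1-2, and rose by 0.47. Calr, the lectin chaperone calreticulin, rose by 0.23, Dnajc3, a J-domain cochaperone also called p58IPK, by 0.50 and Manf, a secreted ER stress protein, by 0.51. Among the largest rises by the rule for named genes were Mogs, the glucosidase that trims the first glucose of N-glycans (0.60), Txndc11, a thioredoxin-domain protein (0.57), and Fkbp14, a prolyl isomerase (0.57, edgeR adjusted p = 0.0203, lost without shlucif replicate 1 or 2, at 0.54 and 0.55, and 0.36 in limma on log2(FPKM + 1)). The largest falls by that rule were those of Pdia5, a disulfide isomerase (-1.28), Sil1, another nucleotide exchange factor of BiP (-1.06), and Ero1b, an oxidase that drives disulfide formation (-0.68, and -0.43 in limma on log2(FPKM + 1)). Hyou1 and Sil1, which act on the same step of the BiP cycle, thus changed in opposite directions, and Hspa5 itself rose.

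In ER-associated degradation, of 30 genes tested, 13 were higher, 5 lower and 12 did not pass the test, with a median of 0.14. The share past the threshold was 60.0%, beside 64.5% of all genes. Selenos (0.89), which links Derlins to the Vcp ATPase, Ube2j1 (0.80), a ubiquitin-conjugating enzyme, and Ufd1 (0.51), a cofactor of Vcp, rose. Edem2 (-0.74) and Edem1 (-0.42), which act in mannose trimming of misfolded glycoproteins, and Sel1l (-0.62), the adaptor of the ubiquitin ligase Syvn1, fell. Herpud1, which acts in the same ligase complex as Sel1l, rose.

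Of 25 targets of PERK and Atf4 that were tested, 7 were higher, 10 lower and 8 did not pass the test, with a median of -0.08. The share past the threshold was 68.0%, near the 64.5% of all genes. Between the hairpins 9 of the 25 differed, 7 of them higher with shArf1-2, a share of 36.0% beside 14.4% of all genes. Stc2, a secreted glycoprotein (1.28), Atf5, a relative of Atf4 (1.14), and Chac1, which breaks down glutathione (0.68), rose. Bbc3, the cell death protein Puma (-1.20), Gdf15, a secreted stress factor (-0.99), and Atf3, a transcription factor of the stress response (-0.95), fell. Atf3 was at 14.3 ± 0.889 FPKM (SD, n = 3) with shlucif, 6.77 ± 0.207 with shArf1-1 and 8.68 ± 0.413 with shArf1-2, the same order of groups as Ddit3.

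Of 30 genes tested for entry into the secretory pathway, 9 were higher, 8 lower and 13 did not pass the test, with a median of 0.08. The share past the threshold was 56.7%, beside 64.5% of all genes. With shArf1-1, 15 were higher and 8 lower, with a median of 0.15, and with shArf1-2, 9 were higher and 8 lower, with a median of -0.01. The shares of all genes tested were 33.1% higher and 34.4% lower with shArf1-1, and 30.9% higher and 32.6% lower with shArf1-2. Between the hairpins 13 of the 30 differed, 12 of them lower with shArf1-2, a share of 43.3% beside 14.4% of all genes. This share was 19.23% in the signalling list and 17.95% in the other folding factors. It was 10% in ER-associated degradation and 12% in the chaperones outside the ER that follow. Among those at a TMM-scaled CPM of at least 5, the largest rises were those of Srp19, part of the signal recognition particle (0.57), Kdelr2, a receptor that returns ER proteins from the Golgi (0.56), and Dad1, a subunit of oligosaccharyltransferase (0.52). In the same range, the largest falls were those of Kdelr3, another retrieval receptor (-1.33), Sec61a2, a translocon subunit (-0.47), and Spcs3, of the signal peptidase (-0.25). Kdelr2 was at 57.8 ± 0.362 FPKM (SD, n = 3) with shlucif, 98.9 ± 1.22 with shArf1-1 and 79.5 ± 5.17 with shArf1-2, and Kdelr3 at 13.1 ± 1.01, 7.05 ± 0.352 and 3.92 ± 0.539 FPKM.

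For chaperones outside the ER, of 25 genes tested, 9 were higher, 10 lower and 6 did not pass the test, with a median of 0.05. The share past the threshold was 76.0%, beside 64.5% of all genes. Hspa8, the constitutive cytosolic Hsp70, was at 637 ± 14.1 FPKM (SD, n = 3) with shlucif, 316 ± 6.71 with shArf1-1 and 344 ± 10.6 with shArf1-2, and fell by 1.01, in the opposite direction to its ER relative Hspa5. Hsp90ab1, the constitutive cytosolic Hsp90, fell by 0.32, Dnajb6, a J-domain cochaperone, by 0.43 and Hspe1, the mitochondrial cochaperonin, by 0.36. Dnajc7 (1.05), a cochaperone of both Hsp70 and Hsp90, Hsph1 (0.59), an Hsp110, and Hspb8 (0.54), a small heat shock protein, rose. Hspa8, Hsp90ab1 and Hspe1 have many near-identical pseudogene copies, and how reads that match several places were counted is not given in the sources used here, so their levels are uncertain.

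**Figure D4:**
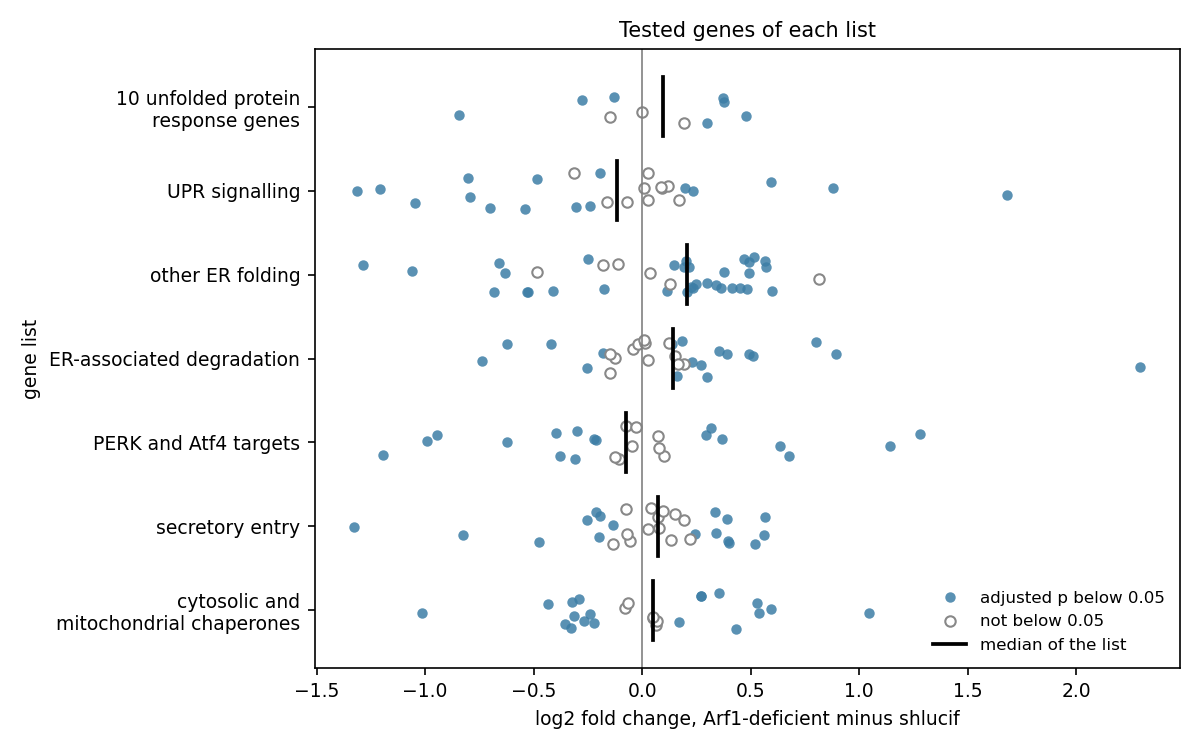
Log2 fold change of Arf1-deficient minus shlucif libraries for the tested genes of each list; filled points have an edgeR adjusted p below 0.05, open points do not, and the black line is the median of the list. The median of the other ER folding genes lies at 0.21, and the point farthest to the right is Derl3 at 2.30, named because it stands apart.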

How the data were processed

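RNA of 9 libraries (N2a cells, 3 per hairpin) was enriched on oligo(dT), fragmented and primed at random, per the labels. The authors deposited whole-number read counts per gene, not normalized, and FPKM values, which equal the count divided by the length given for the gene and by the total of the library. Their notes name the build mm10; the aligner, the counting tool and strand use are not given in the sources used here. 8 lines of broken annotation were left out. Coordinates are those of GENCODE vM21 on GRCm38, matched by identifier, since 552 of 21833 starts in the table were the same. The sequences of promoters are RefSeq's (GRCm38.p6), and the hairpin targets are those of the study's oligonucleotide list. The C-terminal retrieval signals of the proteins were not analysed here.

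Counts were analysed in R 4.3.3 with edgeR 4.0.16 (filterByExpr, TMM, robust glmQLFit, glmQLFTest), with limma 3.58.1 and DESeq2 1.42.0 for alternatives. A fit of 2 groups compared 6 Arf1-deficient with 3 shlucif libraries, and a fit of 3 groups gave each hairpin and their difference. The fit of 2 groups had no term for the hairpin, so the spread behind its p-values also holds the difference between the hairpins. Genes were called at 0.05 after Benjamini-Hochberg adjustment over all 12448 genes tested. Log2 fold changes are from these fits, with TMM scaling, while FPKM levels are scaled by the library total alone. The TMM factors were 0.962 to 0.983 with shlucif and 1.01 to 1.03 with the Arf1 hairpins, so FPKM sets the Arf1-deficient libraries slightly higher. Totals of 11182479 to 15594615 counts set the precision, and 3 counts correspond to a CPM of 0.192 to 0.268. The pipeline was tested on simulated data.

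The 10 genes and all lists were chosen with earlier results of these data known. The genes named were Arf1, the 10 genes, Atf4, Ern1, Eif2ak3, Atf6b, Calr, Hyou1, Dnajc3, Manf, Hspa8 and Hsp90ab1, and per list the 3 largest rises and falls past the threshold with a CPM of at least 5 in the higher group. Derl3, Nfya and Nfyb were named after their values were seen. Alternatives were other scalings (library size, upper quartile), no filter or a minimum of 10 counts throughout, DESeq2, limma with FPKM on the log2 scale and a pseudocount of 1 or 0.1, a replicate block, the 6 libraries compared alone, each library left out, and promoter windows of 250 bases.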

Additional observations from a re-analysis of the deposited data

Results flagged for a closer look

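The values in this part are differences between the hairpins (shArf1-2 minus shArf1-1, on the log2 scale) past the threshold (adjusted p of 0.05, quasi-likelihood test of edgeR), which is what marked them for a closer look. Among the 10 unfolded protein response genes these were Creld2 (0.74), Ddit3 (0.53) and Herpud1 (0.21), and the targeted gene Arf1 differed by 0.34. Of the other named genes, those higher with shArf1-2 were Atf3 (0.34), Chac1 (0.31), Ern1 (0.22), Sec61a2 (0.21) and Hsp90ab1 (0.13). Those lower with shArf1-2 were Kdelr3 (-0.87), Dad1 (-0.34), Kdelr2 (-0.33), Eif2ak3 (-0.33), Manf (-0.29), Txndc11 (-0.29), Selenos (-0.26), Atf6b (-0.17), Hspb8 (-0.16) and Hyou1 (-0.15). Several of these differences did not stay past the threshold under every alternative. Of 17 alternatives, the call was lost under 14 for Atf6b, 9 for Hspb8, 7 each for Hyou1, Sec61a2 and Hsp90ab1, 6 each for Ern1 and Txndc11, 5 each for Manf and Atf3, 4 for Selenos, 3 for Herpud1 and 1 for Chac1 (0.20 without shArf1-1 replicate 3). All of these kept their direction. The calls of Creld2, Ddit3, Arf1, Kdelr3, Dad1, Kdelr2 and Eif2ak3 were kept under all 17. With 3 libraries in a group no library was tested as an outlier.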

How the results depend on the processing

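Xbp1, Atf6, Ddit3, Hspa5 and Herpud1 against shlucif, pooled and for each hairpin, and the difference of Ddit3 and Creld2 between the hairpins, kept their direction and stayed past the threshold under every alternative run. Over the 10 genes and all comparisons, 28 alternative values lost a call, 9 gained it, 647 did neither and 16 changed sign, all of genes not past the threshold. Genes past the threshold numbered 8027 pooled (7251 to 8372 under other settings, 7256 to 8039 with a library left out), 8406 with shArf1-1 (7645 to 8785, 7894 to 8511), 7897 with shArf1-2 (7178 to 8230, 7315 to 8200) and 1798 between the hairpins (1435 to 1941, 1159 to 1977). Of the 10 genes, 5 to 8 passed in the pooled comparison with a library left out. Hsp90b1 pooled was 0.06158 with library size scaling, 0.05834 and 0.05791 in limma on log2(FPKM + 0.1) and log2(FPKM + 1), 0.002964 with no filter, and -0.02088 to 0.02862 with a library left out. With shArf1-1 it was 0.01471, 0.009203 and 0.009166 under the first 3 of these and -0.1105 to 0.02554 with a library left out. Atf6b with shArf1-2 was 0.01079, 0.01158 and 0.01127 under the same 3, and pooled it was -0.00654 without shArf1-1 replicate 2 and -0.01003 without shlucif replicate 2, and the highest with a library left out was 0.05678, without shlucif replicate 3. Between the hairpins, Xbp1 ranged from -0.1478 to 0.004707 with a library left out, Atf6 from -0.005153 to 0.07466 and Pdia4 from -0.05665 to 0.03082. Pdia4 with shArf1-1 passed with at least 10 counts in every library (adjusted p = 0.0467) and with upper quartile scaling (adjusted p = 0.0336). In windows of 250 bases UPRE was in 0.5631% and AARE in 0.8158% of promoters. Deviations from the group means were nearly unrelated between same-numbered libraries (9 pairs, mean correlation 0.00902, from -0.102 to 0.128), so the numbers were not taken to pair them. With the replicate block 7808, 8431, 7939 and 1809 genes passed in the 4 comparisons, and 7, 7, 8 and 3 of the 10 genes. Dnajb9, with the fewest counts, had the widest interval of the 10 genes with either hairpin.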
